A study of Homo sapiens with 13 samples.

Results

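ERRFI1, the EGFR family and its ligands were followed in SW480, a long-established colon cancer cell line of human origin, after 6 h with an iron chelator or with solvent. The 10 genes were chosen by name with ERRFI1, whose rise under the chelators was already known, as the lead. They are the feedback inhibitor genes ERRFI1 and LRIG1, the receptor genes EGFR, ERBB2 and ERBB3, and the ligand genes AREG, EREG, HBEGF, TGFA and BTC. For 9 of them, out of 18404 genes in all, a transcript cluster with a single symbol was found, and AREG is not analysed here. Each of the 9 had 1 transcript cluster, so no choice between clusters was needed.

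The data came from 13 arrays (Affymetrix Human Gene 1.0 ST), with DFO (100 mM, n = 4), Deferasirox (50 mM, n = 3), OICR623 (10 mM, n = 2) and the solvent control DMSO (0.1 percent, n = 4). DFO, or deferoxamine, and Deferasirox are drugs given to patients to bind excess iron. OICR623 has only its code name in the labels. The doses are printed as labelled and differ between the compounds. They are high for cultured cells, so the labels may have meant another unit, which could not be settled here. The series text calls the replicates independent experiments of this 1 cell line.

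EGFR and its relatives are cell surface receptor tyrosine kinases. They pair up when ligands of the EGF type bind, and pass the signal on through RAS and ERK and through PI3K. The ligands are made as membrane proteins and are set free by proteases at the cell surface. ERRFI1, also called MIG6, binds the kinase domain of active receptors and blocks it. LRIG1 lowers the amount of receptor protein. In colon cancer cells this pathway drives growth, and the receptor is a target of therapy.

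The median log2 signals of the arrays fell into 3 levels, which did not follow the groups. The high level held DFO 1 and DMSO 1, the low level DFO 4, Deferasirox 3 and DMSO 4, and the middle level the other 8 arrays, with 2 of each group. DFO 1 and DMSO 1 had exactly the same value in 8530 of the 32321 transcript clusters (26.4 percent), whereas each of the 46 pairs of arrays from different levels had 0 equal values. Among the members, LRIG1 and BTC were equal in DFO 1 and DMSO 1. In the middle level 5 to 35 clusters were equal in a pair, and in the low level 85 to 107. Unless another setting is named, the tests below hold the level as a block, and some differences are also given without the high level. The high level enters the Deferasirox and OICR623 estimates too, since all groups share the fit. Of 10 colon epithelial markers, KRT8 and KRT18 lay at the 99.3 and 99.7 percentiles of mean signal and EPCAM at 82.0, while CDH1, KRT20 and CDH17 lay between 8.22 and 20.7. KRT19, CDX2, CDX1 and VIL1 lay at 92.1, 70.5, 46.3 and 42.7. Fibroblast markers lay between 1.47 and 54.8, endothelial markers between 16.6 and 29.9 and leukocyte markers between 1.97 and 75.9 (CD68). No fibroblast, endothelial or leukocyte marker was called under any compound (0 of 17). Of all genes 4.6, 5.84 and 0.734 percent were called under DFO, Deferasirox and OICR623, so with so few markers 0 calls is near that share. Of the epithelial markers KRT19 was called higher (0.35 and 0.33) and CDX2 lower (-0.49 and -0.77) under DFO and Deferasirox. Their part in the results was not tested.

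RefSeq (GRCh38.p14) holds the promoters of ERRFI1, TGFA and HBEGF. They are shown because these 3 members had the highest differences from DMSO with the level as a block. HBEGF was not called under OICR623, and its direction there depended on the setting. Each window runs from 250 bases before to 50 after a start site, on the minus strand, at chr1:8026260-8026559 (ERRFI1), chr2:70553777-70554076 and chr2:70553397-70553696 (the first and second TGFA windows) and chr5:140346554-140346853 (HBEGF). Capitals mark the core of the element that HIF, the oxygen- and iron-sensitive factor, is known to bind, searched as ACGTG and GCGTG on both strands.
ERRFI1: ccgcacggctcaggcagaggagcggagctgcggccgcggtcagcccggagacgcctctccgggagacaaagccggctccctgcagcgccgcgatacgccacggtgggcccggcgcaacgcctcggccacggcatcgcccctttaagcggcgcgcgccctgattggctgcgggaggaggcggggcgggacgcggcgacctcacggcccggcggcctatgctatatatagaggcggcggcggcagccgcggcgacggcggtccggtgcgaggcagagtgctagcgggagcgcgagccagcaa
TGFA, first window: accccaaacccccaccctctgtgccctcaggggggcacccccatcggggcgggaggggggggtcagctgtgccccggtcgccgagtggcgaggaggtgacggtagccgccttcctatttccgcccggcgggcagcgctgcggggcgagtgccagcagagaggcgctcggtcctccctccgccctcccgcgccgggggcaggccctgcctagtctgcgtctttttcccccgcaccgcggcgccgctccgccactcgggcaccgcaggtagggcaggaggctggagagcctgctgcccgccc
TGFA, second window: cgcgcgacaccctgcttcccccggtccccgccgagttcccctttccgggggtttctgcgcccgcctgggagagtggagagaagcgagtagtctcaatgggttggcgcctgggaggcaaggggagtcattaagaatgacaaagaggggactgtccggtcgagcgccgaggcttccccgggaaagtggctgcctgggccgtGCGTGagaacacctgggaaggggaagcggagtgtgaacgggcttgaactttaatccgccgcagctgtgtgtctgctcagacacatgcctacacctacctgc
HBEGF: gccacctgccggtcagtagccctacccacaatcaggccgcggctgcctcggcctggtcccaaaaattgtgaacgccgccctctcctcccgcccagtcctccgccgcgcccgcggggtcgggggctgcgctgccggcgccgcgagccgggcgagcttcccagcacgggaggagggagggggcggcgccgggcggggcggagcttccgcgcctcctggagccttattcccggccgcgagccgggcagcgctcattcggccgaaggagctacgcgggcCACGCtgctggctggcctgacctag
The ERRFI1 window and the first TGFA window held 0 such matches, and the second TGFA window and the HBEGF window 1 each. The share of all 35116 RefSeq promoter windows with at least 1 match of either spelling was 48.4 percent, so a match is common and is no sign of a site. Of the 14 windows of the members, 8 had a match, among them those of genes that were not called, such as the first 3 windows of LRIG1. The 14 windows include that of AREG, which was not analysed on the arrays, and none of ERBB3.

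ERRFI1 was far higher under each chelator. Its log2 signal was 11.90, 11.81, 11.79 and 11.73 in DFO 1 to 4, 11.90, 11.94 and 12.00 in Deferasirox 1 to 3 and 11.57 and 11.48 in OICR623 1 and 2. In DMSO 1 to 4 it was 10.43, 9.78, 9.64 and 9.56. All 9 treated arrays lay above all 4 DMSO arrays, so the groups did not overlap in spite of the levels. The array data cannot tell more RNA per cell from more cells that express the gene, here and below.

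With the level as a block, ERRFI1 differed from DMSO by 1.96 under DFO (95% interval 1.74 to 2.17), or 3.88-fold. The difference was 2.21 under Deferasirox (1.97 to 2.45), or 4.62-fold, and 1.77 under OICR623 (1.49 to 2.06), or 3.42-fold. Among 18404 genes these were the 5th, 3rd and 4th highest differences. ERRFI1 was picked for this rise, so these values describe it and no test is given. Taken level by level, the DFO difference was 1.48 (high), 2.09 (middle) and 2.16 (low), and without the high level it was 2.12 (SE 0.06). Without that level the Deferasirox difference was 2.29 and the OICR623 difference 1.85. DMSO 1 was the DMSO array with the highest ERRFI1 signal, 0.72 above the mean of the middle DMSO arrays, while DFO 1 lay 0.10 above the middle DFO arrays.

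**Figure D1:**
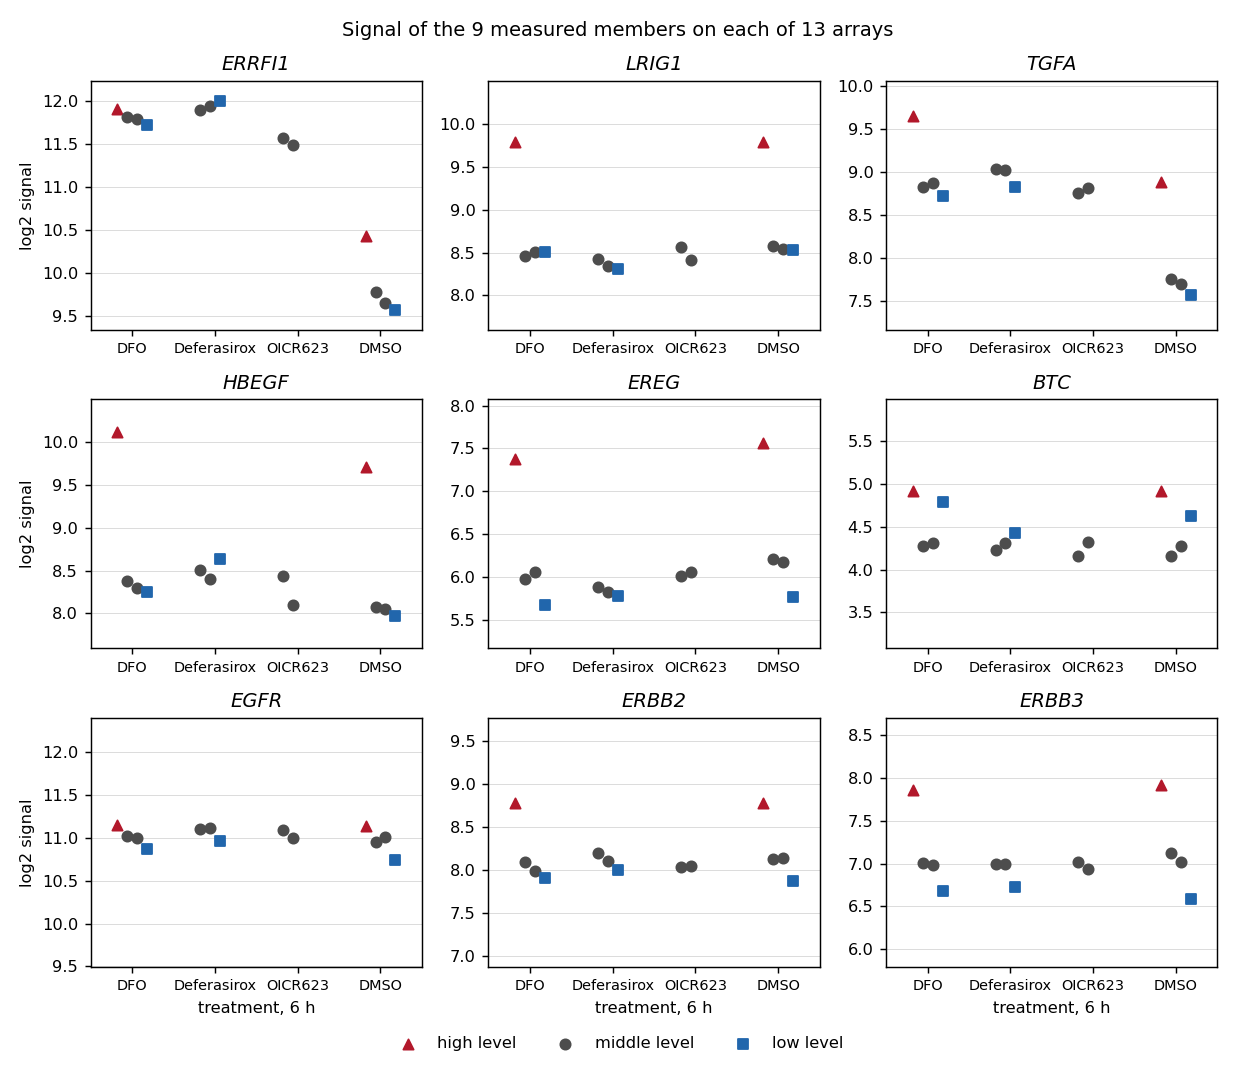
Log2 signal (vertical axis) of the 9 measured members on each array, grouped by treatment (horizontal axis), with every panel spanning the same range of log2 units. Marker shape and colour give the array level. ERRFI1 and TGFA stand higher in all 3 compounds than in DMSO arrays of the same level, while the red triangles of DFO 1 and DMSO 1 lie above the other arrays of their groups in most panels.

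TGFA, which encodes the ligand TGF-alpha, was the ligand gene with the highest difference under every compound. Its log2 signal was 9.65, 8.83, 8.87 and 8.72 in DFO 1 to 4, 9.03, 9.02 and 8.83 in Deferasirox 1 to 3 and 8.75 and 8.81 in OICR623 1 and 2. The 4 DMSO arrays had 8.88, 7.76, 7.69 and 7.57. On the deposited scale DMSO 1 overlapped with treated arrays of lower levels, whereas within each level every treated array lay above every DMSO array.

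TGFA rose by 1.04 under DFO (interval 0.91 to 1.17, 2.06-fold, adjusted p = 2.0e-06 by limma over all genes). Under Deferasirox it rose by 1.24 (1.10 to 1.39, 2.37-fold, adjusted p = 2.4e-06), and under OICR623 by 1.01 (0.84 to 1.18, 2.02-fold, adjusted p = 1.6e-04). These were the 19th, 17th and 15th highest differences of 18404 genes. Level by level the DFO difference was 0.77 (high), 1.12 (middle) and 1.15 (low). It was 1.13 (SE 0.04) without the high level, and the Deferasirox difference was then 1.29. Without any block none of the 3 calls was made (adjusted p = 0.44, 0.87 and 1.00 for DFO, Deferasirox and OICR623 by limma), with differences of 1.04, 0.98 and 0.81. With the replicate number as the block over all arrays, TGFA was called under DFO (adjusted p = 0.033) but not under Deferasirox (0.87, adjusted p = 0.10) or OICR623 (0.56, adjusted p = 0.30). Median centring without a block also lost the OICR623 call (0.91, adjusted p = 0.080).

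HBEGF encodes heparin-binding EGF-like growth factor, another ligand of EGFR. Its log2 signal was 10.11, 8.38, 8.30 and 8.24 in DFO 1 to 4, 8.50, 8.40 and 8.64 in Deferasirox 1 to 3 and 8.43 and 8.10 in OICR623 1 and 2. It was 9.71, 8.07, 8.05 and 7.97 in DMSO 1 to 4. Within each level the treated arrays lay above the DMSO arrays, with OICR623 2 only just above both middle DMSO arrays.

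HBEGF rose by 0.50 under Deferasirox (interval 0.31 to 0.69, 1.41-fold, adjusted p = 0.0060 by limma). Under DFO it rose by 0.31 (0.14 to 0.48, 1.24-fold), only just past the threshold (adjusted p = 0.047 by limma). That call was lost without any 1 of the 8 DFO and DMSO arrays (adjusted p = 0.070 to 0.18), without the high level (0.28, adjusted p = 0.16) and in the middle level alone (0.28, adjusted p = 0.39). It was also lost with the replicate number as the block over all arrays, and without a block on the deposited, median-centred or quantile-normalized values (adjusted p = 1.00 in all 4). With the replicate number as the block on the 8 DFO and DMSO arrays alone the call was made (adjusted p = 0.014). Under OICR623 the difference was 0.25 (0.03 to 0.47) and was not called (adjusted p = 0.39). It was 0.086 without OICR623 1 and 0.42 without OICR623 2. It was negative without a block (-0.18), with median centring (-0.08), with quantile normalization (-0.03) and with the replicate block over all arrays (-0.53), so its direction depended on the setting. The Deferasirox call was made without any 1 of the 7 arrays compared (adjusted p = 0.0099 to 0.047), but not in the middle level alone (0.39, adjusted p = 0.17) or without a block (0.06, adjusted p = 0.96). It was also lost with median centring (0.22, adjusted p = 0.97) and quantile normalization (0.27, adjusted p = 0.95). With the replicate number as the block the direction turned, to -0.10 (adjusted p = 0.81). Over all arrays that block joins arrays of different levels, such as Deferasirox 1 and OICR623 1 (middle) with DMSO 1 (high). The part of this in the change of direction was not tested.

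EREG, the gene of the ligand epiregulin, was not called under any compound, with negative differences in all 3. Its log2 signal was 7.37, 5.98, 6.06 and 5.68 in DFO 1 to 4, 5.89, 5.82 and 5.78 in Deferasirox 1 to 3 and 6.01 and 6.06 in OICR623 1 and 2. In DMSO 1 to 4 it was 7.56, 6.21, 6.18 and 5.77. The difference was -0.16 under DFO (interval -0.29 to -0.03, adjusted p = 0.20), -0.23 under Deferasirox (-0.37 to -0.08, adjusted p = 0.073) and -0.12 under OICR623 (-0.29 to 0.05, adjusted p = 0.65), all by limma. Deferasirox arrays lay below the DMSO arrays in the middle level and 0.01 above in the low level. Without Deferasirox 3 the difference was -0.33 and passed (adjusted p = 0.0089), as it did without DMSO 4 (-0.29, adjusted p = 0.044).

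BTC, the gene of the ligand betacellulin, had the dimmest cluster of the members, with 91.1 percent of genes brighter. It stood at 4.28 to 4.91 in DFO arrays, 4.22 to 4.43 in Deferasirox arrays, 4.15 and 4.32 in OICR623 arrays and 4.15 to 4.91 in DMSO arrays. The groups overlapped fully, and no difference from DMSO was called, at 0.08, -0.04 and -0.01 under DFO, Deferasirox and OICR623. Since DFO 1 and DMSO 1 were equal to the last deposited digit, the high level added a difference of exactly 0 for BTC and for LRIG1. Without the high level the DFO difference was 0.11 for BTC and -0.06 for LRIG1.

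The 3 receptor genes showed no called difference. EGFR, the receptor for TGF-alpha and HB-EGF, had log2 signals of 11.15, 11.02, 10.99 and 10.87 in DFO 1 to 4, 11.11, 11.11 and 10.96 in Deferasirox 1 to 3 and 11.09 and 11.00 in OICR623 1 and 2. DMSO 1 to 4 had 11.14, 10.95, 11.01 and 10.75. Its difference was 0.04 under DFO (interval -0.04 to 0.13), 0.15 under Deferasirox (0.06 to 0.24, adjusted p = 0.072 by limma) and 0.07 under OICR623 (-0.03 to 0.18). A variance prior that follows the signal called the Deferasirox difference (adjusted p = 0.010), as did leaving out dim genes (adjusted p = 0.034). The size was 0.15, or 1.11-fold, in each of these fits.

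ERBB2, the gene of the receptor that needs no ligand, ranged over 7.91 to 8.77 in DFO, 8.03 to 8.04 in OICR623 and 7.86 to 8.78 in DMSO arrays, and averaged 8.10 ± 0.095 in Deferasirox arrays (SD, n = 3). Its differences were -0.04 (interval -0.13 to 0.06), 0.06 (-0.04 to 0.17) and -0.06 (-0.19 to 0.06) under DFO, Deferasirox and OICR623. ERBB3, whose product has little kinase activity of its own and docks PI3K, ranged over 6.68 to 7.86 in DFO, 6.73 to 6.99 in Deferasirox, 6.94 to 7.02 in OICR623 and 6.58 to 7.91 in DMSO arrays. For ERBB3 the differences were -0.03 (-0.13 to 0.08), -0.01 (-0.12 to 0.11) and -0.05 (-0.19 to 0.08). The intervals of ERBB2 and ERBB3 thus reached at most 0.19 from 0 in either direction, below the lower bounds of TGFA.

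LRIG1, the other inhibitor gene, did not follow ERRFI1. Its signal was 9.79, 8.46, 8.50 and 8.50 in DFO 1 to 4, 8.43, 8.35 and 8.31 in Deferasirox 1 to 3 and 8.56 and 8.41 in OICR623 1 and 2, against 9.79, 8.58, 8.54 and 8.53 in DMSO 1 to 4. All Deferasirox arrays lay below all DMSO arrays, with a difference of -0.18 (interval -0.29 to -0.07) that was not called (adjusted p = 0.060 by limma). It passed with dim genes left out (adjusted p = 0.028) and with the variance prior that follows the signal (adjusted p = 0.031). Under DFO and OICR623 the difference was -0.05 (-0.14 to 0.05) and -0.06 (-0.19 to 0.06).

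**Figure D2:**
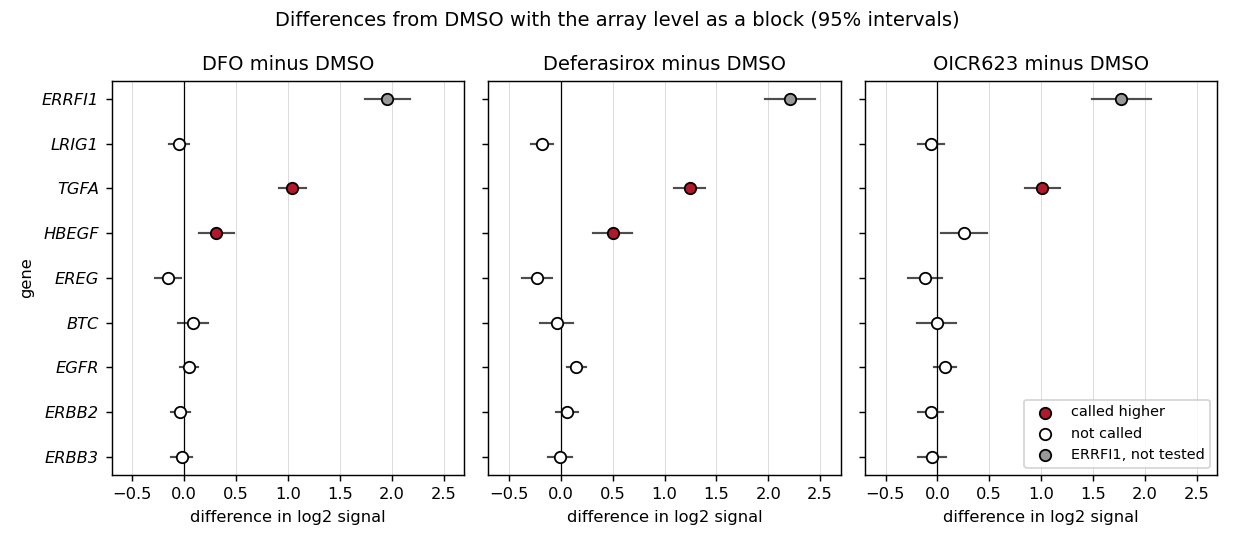
Difference in log2 signal from DMSO (horizontal axis) for each member (vertical axis) under the 3 compounds, with the level as a block. Bars are 95% intervals, red points are called genes, open points are not called and the grey point is ERRFI1, which was not tested. TGFA lies at 1.04, 1.24 and 1.01, while the 3 receptor genes stay between -0.06 and 0.15.

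Of the 8 members other than ERRFI1, 2 rose under DFO and 0 fell, where 1.89 percent of all genes were called higher, 2.72 percent lower and 4.6 percent in all. Under Deferasirox 2 rose and 0 fell (2.83 percent of all genes called higher, 3 percent lower and 5.84 percent in all), and under OICR623 1 rose and 0 fell (0.337 percent called higher, 0.397 percent lower and 0.734 percent in all). The median difference of these 8 members was 0.01, 0.03 and -0.03 under DFO, Deferasirox and OICR623, and that of all genes was 0.00 each time. A rise was thus seen in single ligand genes and not across the set. The 3 comparisons share the DMSO arrays, so their agreement is not independent.

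The compounds were set against each other in 3 pairs, at doses that differ. Of the 9 members 0 were called by limma in any pair, while 0.0435 percent of all genes were called between Deferasirox and DFO, 0.168 percent between OICR623 and DFO and 0.0869 percent between OICR623 and Deferasirox. At an unadjusted p under 0.05 the limma counts were 4, 0 and 4 of 9 members. The share of all genes at this unadjusted threshold was not counted, so these counts cannot be set against it. ERRFI1 differed by 0.25 between Deferasirox and DFO (interval 0.01 to 0.49), by -0.18 between OICR623 and DFO (-0.46 to 0.10) and by -0.43 between OICR623 and Deferasirox (-0.72 to -0.15, adjusted p = 0.35). Both OICR623 arrays lay below all DFO and Deferasirox arrays for ERRFI1. Without the high level the adjusted p of that last difference was 0.063, with the same size.

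TGFA differed by 0.20 between Deferasirox and DFO (0.05 to 0.35, adjusted p = 0.32), by -0.03 between OICR623 and DFO (-0.20 to 0.14) and by -0.23 between OICR623 and Deferasirox (-0.40 to -0.05, adjusted p = 0.42 by limma). HBEGF differed by 0.19 (interval -0.00027 to 0.38), -0.06 (-0.28 to 0.17) and -0.24 (-0.47 to -0.02) in the same 3 pairs. With the level as a block Deferasirox had the highest estimates in these 3 genes, by margins that did not pass the test over all genes. Deferasirox has no array in the high level, and without a block it stood below DFO for TGFA (-0.06) and HBEGF (-0.25), so this order depends on the block. The intervals show what differences remain possible, and the data do not show that the compounds act alike.

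The genes whose level-centred profiles lay closest to that of ERRFI1 over the 13 arrays were ADM, CHST15, EGLN3, ARRDC3 and BHLHE40, by the root mean square difference. ADM encodes adrenomedullin, and its profile differed from that of ERRFI1 by 0.117 log2 units, where the ERRFI1 profile itself had an SD of 0.961. CHST15 (a sulfotransferase gene) differed by 0.122, EGLN3 (a HIF prolyl hydroxylase gene) by 0.125, ARRDC3 (an arrestin-domain gene) by 0.191 and BHLHE40 (a transcriptional repressor gene) by 0.217. For TGFA the closest genes were FOSL2, of the AP-1 family, at 0.102 and SLC2A3, a glucose transporter gene, at 0.103 (SD of the TGFA profile 0.529). For HBEGF they were DUSP6, an ERK phosphatase gene, at 0.0731 and RLF at 0.0741 (SD 0.211). All these profiles share the arrays, the levels and the 4 treatments, and the distances describe likeness only.

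**Figure D3:**
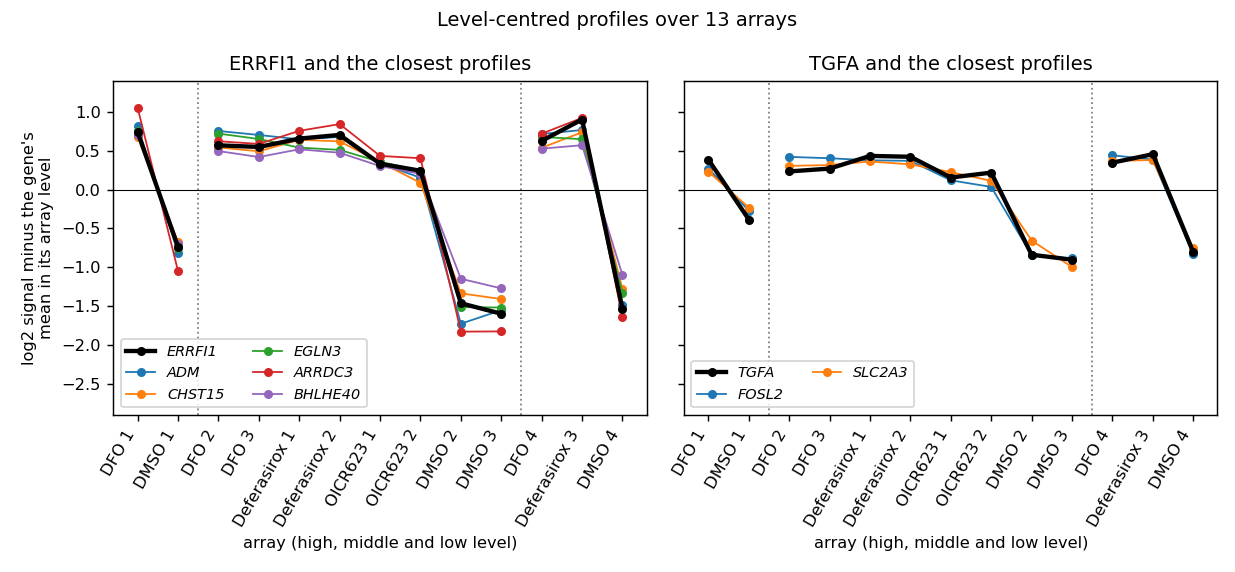
Log2 signal minus the gene's mean in the array's level (vertical axis) for ERRFI1 and its 5 closest genes (left) and TGFA and its 2 closest genes (right), over the 13 arrays in order of level (horizontal axis, dotted lines between levels). In each level the DMSO arrays are at the bottom, and the DFO 1 to DMSO 1 gap of ERRFI1 (1.48) is smaller than the gaps of 2.09 and 2.16 in the other levels.

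The pathway around the members was read from 7 lists of textbook genes with 100 distinct genes, of which 91 were measured. Some of the 91, such as HRAS, CBL and EMP1, had exactly equal values in DFO 1 and DMSO 1, as did 30.1 percent of all genes. For these the high level added no DFO difference. Under DFO 9 of them rose, 1 fell and 81 were not called. Under Deferasirox 13 rose, 1 fell and 77 were not called, and under OICR623 2 rose, 0 fell and 89 were not called. The median differences of the 91 genes were 0.01, 0.03 and 0.02, beside 0.00 for all genes. Rises made up 9.89, 14.3 and 2.20 percent of the 91 genes, beside 1.89, 2.83 and 0.337 percent of all genes. Without a block 0 of the 91 were called by limma under any compound, where 0.245, 0.234 and 0.038 percent of all genes were called under DFO, Deferasirox and OICR623. Of the 10 calls under DFO, 6 were left in number without DFO 4 or without DMSO 4. Of the 14 under Deferasirox, 8 were left without Deferasirox 2, Deferasirox 3 or DMSO 4 and 9 without DMSO 3, and of the 2 under OICR623, 0 without OICR623 1, OICR623 2 or DMSO 3 and 1 without DMSO 2 or DMSO 4.

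Of 20 negative regulators of receptor signalling, 4 rose under DFO, 5 under Deferasirox and 1 under OICR623, and 0 fell. DUSP5, whose product removes phosphate from nuclear ERK, had log2 signals of 10.46, 9.94, 10.06 and 9.87 in DFO 1 to 4, 10.13, 10.12 and 10.04 in Deferasirox 1 to 3 and 9.91 and 9.97 in OICR623 1 and 2. DMSO 1 to 4 had 10.09, 9.65, 9.63 and 9.43. It rose by 0.38 (SE 0.04), 0.53 (SE 0.04) and 0.32 (SE 0.05) under DFO, Deferasirox and OICR623, with adjusted p = 2.2e-04, 6.7e-05 and 0.018 by limma. DUSP6, which acts on ERK in the cytoplasm, rose by 0.31 under DFO and 0.50 under Deferasirox (adjusted p = 0.0049 and 4.3e-04), and stood at 0.26 under OICR623 (adjusted p = 0.14). SPRY1, a Sprouty inhibitor of RAS signalling, rose by 0.48 under DFO and 0.31 under Deferasirox (adjusted p = 6.8e-04 and 0.020), and stood at 0.36 under OICR623 (adjusted p = 0.075). DUSP4 rose by 0.19 under Deferasirox (adjusted p = 0.014), and stood at 0.06 under DFO and 0.07 under OICR623.

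Among 16 transcripts that EGF induces, 3 rose and 1 fell under DFO, 5 rose and 0 fell under Deferasirox, and 1 rose and 0 fell under OICR623. KLF10, a zinc finger repressor gene, rose under all 3, by 0.51 (SE 0.05), 0.47 (SE 0.05) and 0.31 (SE 0.06), with adjusted p = 7.1e-05, 3.4e-04 and 0.048 by limma. IER3, an immediate early gene linked to survival, rose by 0.28 under DFO and by 0.33 under Deferasirox (adjusted p = 0.0030 and 0.0017). MYC was the transcript that fell, by 0.41 on the log2 scale under DFO (adjusted p = 0.0010). EMP1, a membrane protein gene, rose by 0.26 under Deferasirox (adjusted p = 0.0061). Most transcripts of the list were not called, with 12, 11 and 15 of 16 uncalled under DFO, Deferasirox and OICR623.

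Of the receptor adaptors and the RAS-ERK relay, 2 of 15 measured genes rose under DFO, 2 under Deferasirox and 0 under OICR623. MAP2K1, the gene of the ERK kinase MEK1, rose by 0.35 under DFO and 0.48 under Deferasirox (adjusted p = 0.017 and 0.0045 by limma), and stood at 0.28 under OICR623 (adjusted p = 0.26). GAB1, a docking protein gene, rose by 0.29 under DFO (adjusted p = 0.019), and SOS2, a RAS activator gene, by 0.23 under Deferasirox (adjusted p = 0.022). Of 8 genes of ligand shedding, RHBDF2 alone was called, and under Deferasirox alone, at 0.29 (adjusted p = 0.0024). RHBDF2 encodes iRhom2, a partner of the sheddase ADAM17. It stood at 0.05 under DFO and 0.01 under OICR623, and whether the compounds differ in it was not tested. ADAM17 itself was at 0.01, 0.01 and 0.06 and was not called.

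PIK3R1, a regulatory subunit gene of PI3K, fell by 0.19 on the log2 scale under Deferasirox (adjusted p = 0.029 by limma), the only call among 10 genes of the PI3K, STAT and SRC list under any compound. None of the 15 genes of receptor endocytosis was called. The same held for the 7 other receptors and ligands, ERBB4, EGF, EPGN and the 4 neuregulin genes, whose medians were 0.02, -0.05 and -0.05 under DFO, Deferasirox and OICR623. Of these, EGF, NRG1, NRG2 and NRG3 had exactly equal values in DFO 1 and DMSO 1. Calls made up 4.6, 5.84 and 0.734 percent of all genes under DFO, Deferasirox and OICR623. In lists as small as these and that of ligand shedding, 0 or 1 call is near that share.

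**Figure D4:**
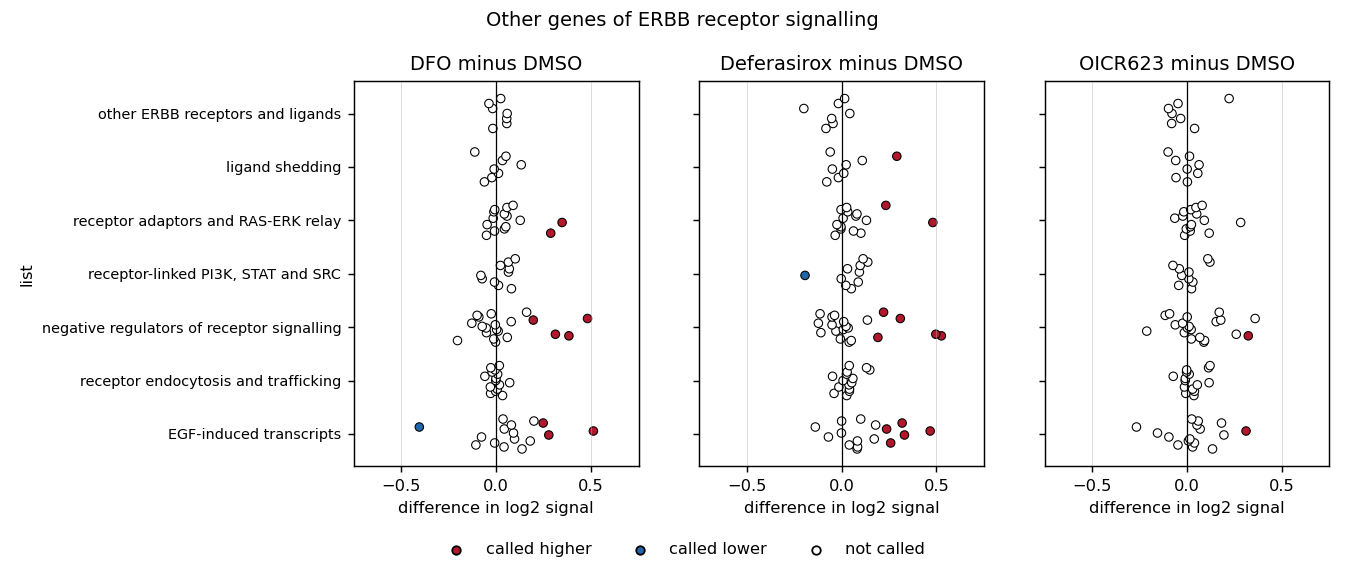
Difference in log2 signal from DMSO (horizontal axis) of the 91 measured pathway genes, 1 point each, by list (vertical axis) under the 3 compounds. Red points were called higher, blue points lower and open points not called. Most points lie near 0, and red points are seen among the negative regulators (4, 5 and 1 of 20) and the EGF-induced transcripts (3, 5 and 1 of 16). They are also seen among the receptor adaptors and RAS-ERK relay (2, 2 and 0 of 15) and in ligand shedding (0, 1 and 0 of 8).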

How the data were processed

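The deposited table holds 1 log2 signal for each transcript cluster on each array (the scale is read from the range of the values), with no detection call or background. The submitters' processing notes name GCRMA and limma and give no version, role or order, and how the arrays were normalized to each other is not given in the sources used here. Symbols came from the platform annotation, and were matched by Entrez identifier to RefSeq names (19128 of 19158 clusters with 1 symbol, 0 names changed). Of several clusters of a gene the one with the highest mean was kept, which left 18404 genes, with no filter on dim ones.

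Each array was put in a level where neighbouring array medians lay more than 0.05 apart. limma 3.58.1 in R 4.3.3 was fitted to all 13 arrays with group means, the level as a fixed block and moderated variances (eBayes). Calls are genes whose p, adjusted by Benjamini-Hochberg across the 18404 genes, was below 0.05. Gene lists were counted and not tested. Named genes were all members, up to 3 called genes of each pathway list with the smallest adjusted p per comparison with DMSO, and the genes closest in profile (5 to ERRFI1, 2 to each called member). Members, lists, the block and the tests were chosen with earlier results of these data known. The scripts were tested on simulated data. Same-numbered DFO and DMSO arrays deviated together from their group means (correlations 0.945, 0.662, 0.738 and 0.788 across genes). Each same-numbered pair lies within a single level, and the level was not removed first. These correlations therefore cannot show whether the numbers pair the arrays. The tests printed hold the level as the block and not the number. A fit of these 8 arrays with the number as the block is an alternative (619 genes called under DFO, beside 847). The high and low levels hold 1 such pair each, where pair and level are the same, and the middle level holds pairs 2 and 3. With few arrays per group, their number limits the precision of every value. Alternatives tried were no block, median centring, quantile normalization, a replicate block, leaving out dim genes, averaging transcript clusters, a variance prior with a trend, the middle level alone and leaving out each array. Leaving out the high level was added after its equal values had been seen.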

Additional observations from a re-analysis of the deposited data

Results flagged for a closer look

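In the groups of 4 arrays, DFO and DMSO, 18 sets of member signals were examined for 1 array far from the other 3, and 6 stood apart, all in DFO 1 or DMSO 1, the arrays of the high level. Chance would flag about 1 in 20 such sets if the sets were independent and the arrays alike. The sets share the same arrays, and DFO 1 and DMSO 1 already had the highest array medians. The 6 flags therefore cannot be set against that rate. HBEGF stood at 10.11 in DFO 1, with the other DFO arrays at 8.24 to 8.38, and at 9.71 in DMSO 1, with the other DMSO arrays at 7.97 to 8.07. TGFA was at 9.65 in DFO 1, against 8.72 to 8.87 in the other DFO arrays, and at 8.88 in DMSO 1, against 7.57 to 7.76 in the others. LRIG1 had the same signal of 9.79 in DFO 1 and in DMSO 1, while the other arrays lay at 8.46 to 8.50 for DFO and 8.53 to 8.58 for DMSO. In the high level the members were not shifted alike: relative to the middle arrays of the same group, HBEGF lay 1.78 (DFO) and 1.65 (DMSO) higher, EREG 1.35 and 1.36, and EGFR 0.14 and 0.16.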

How the results depend on the processing

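Of the 8 members other than ERRFI1, the number called under DFO was 2, and it was 0 with no block, and 1 with median centring, quantile normalization, the replicate block over all arrays, the middle level alone, the high level left out (chosen after seeing the data) and any 1 array left out (range 1 to 1). Under Deferasirox it was 2, and 0 with no block or the replicate block, 1 with median centring or quantile normalization, 4 with dim genes left out or the variance trend, and 2 to 3 with 1 array left out. Under OICR623 it was 1, and 0 with no block, median centring or the replicate block, and 1 to 1 with 1 array left out. Of the 91 pathway genes, 10, 14 and 2 were called under DFO, Deferasirox and OICR623. These counts were 0, 0 and 0 with no block and with the replicate block, 2, 2 and 0 with median centring and with quantile normalization, and 6, 5 and 0 in the middle level alone, and with 1 array left out they ranged over 6 to 9, 8 to 13 and 0 to 3. Under OICR623 the count was 7 with the variance trend and 1 with averaged clusters. Calls over all genes were 847, 1074 and 135, against 45, 43 and 7 with no block, 154, 170 and 19 with median centring, 161, 185 and 25 with quantile normalization, 78, 127 and 10 with the replicate block, and 274, 326 and 81 in the middle level. They were 338 under OICR623 with the variance trend and 224 with dim genes left out, and fell to 494 (without DFO 4), 546 (without Deferasirox 3) and 33 (without OICR623 1). HBEGF under Deferasirox turned to -0.10 with the replicate block (adjusted p = 0.81 by limma). The replicate block on the 8 DFO and DMSO arrays alone gave 2 members, 7 pathway genes and 619 genes. Same-numbered pairs with a Deferasirox or OICR623 array had correlations of -0.32 to 0.33. Some of these pairs lie in different levels, and the level was not removed first. Whether a shared number pairs these arrays can therefore not be told from the correlations. No member was called between compounds under any alternative. In 58 of 780 recomputed member differences the sign changed with no call in either fit, 37 of them between compounds. ERRFI1 stayed above DMSO in every alternative, at 1.88 to 2.12, 2.04 to 2.29 and 1.57 to 1.85, and TGFA at 1.01 to 1.13, 0.87 to 1.30 and 0.56 to 1.06. The cause of these changes was not tested. Each member has 1 transcript cluster, so averaging clusters left its difference as it was. Without 1 OICR623 array the other is assumed to vary like the other groups. Without detection calls, signals such as BTC's cannot be set against background.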
